A study of Xenopus tropicalis with 11 samples.

Results

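The peaks of the co-repressor Tle and of the transcription factor Foxh1 were compared in stage 8 embryos of the frog Xenopus tropicalis, both mapped by chromatin immunoprecipitation followed by sequencing (ChIP-seq). Every peak of the deposited stage 8 Foxh1 list and of the stage 8 Tle list was taken, which gave 28611 Foxh1 and 37919 Tle peaks. Together they are 66530 of the 139160 peaks in the 6 lists of the series. A Foxh1 and a Tle peak were paired when they overlapped by at least 1 base.

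Foxh1 is a forkhead transcription factor that the egg supplies and that works with Smad2/3, the proteins that carry Nodal signals into the nucleus. Nodal signalling sets up mesoderm and endoderm in the frog embryo. Tle belongs to the Groucho family of co-repressors, which do not read DNA sequence themselves and reach chromatin through partner factors such as the Tcf/Lef proteins of the Wnt pathway. Stage 8 is a blastula stage close to the onset of transcription from the embryo's own genome.

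Both libraries came from whole embryos of the Nigerian strain, cultured at 25 °C and fixed with 1% formaldehyde for 45 min, with no treatment and no genetic change named in the labels. A peak of each factor at the same place therefore does not show that both proteins were there in the same cells. The Foxh1 list stands for 2 pooled replicates immunoprecipitated with a custom antibody to the Xenopus tropicalis protein. The Tle list stands for 1 library, made with a commercial antibody and another library kit, with an input sample of its own. Other lists of the series served for comparison: Foxh1 at stage 9, Foxa, a forkhead factor of the endoderm, at stage 10.25, and Foxh1 and Smad2/3 of the early gastrula. The 2 gastrula lists have no sample in this series and are a reanalysis of samples of an earlier series. They hold 1290 Foxh1 and 480 Smad2/3 peaks, against 29935 for stage 9 Foxh1 and 40925 for Foxa. Low shares with the gastrula lists are thus limited by list size and do not show a loss of binding. There was 1 list per factor and stage, so no test between samples could be made. Read depth is unknown. Intervals are 95% Wilson intervals, which cover the counting of peaks and not the variation between embryos.

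More than 50% of the Foxh1 peaks carried Tle, and somewhat less than 50% of the Tle peaks carried Foxh1. Of the stage 8 Foxh1 peaks, 16676 overlapped a Tle peak, which is 58.3% (57.7 to 58.9%). Among Tle peaks, 16594 did so with Foxh1, which is 43.8% (43.3 to 44.3%). These peaks formed 16856 pairs. In 94.9% of the pairs each peak had a single partner, so most contacts between the lists were 1 peak to 1 peak. Tle peaks covered 0.864% of the extent of the 1234 scaffolds (1369.8 Mb up to the furthest peak of any list), whereas 56.4% (55.8 to 56.9%) of the Foxh1 summits lay inside a Tle peak. In the other direction, Foxh1 peaks covered 0.741% of the extent and held the middle of 42.2% (41.7 to 42.7%) of the Tle peaks.

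The shares were similar along the genome. On the 10 longest scaffolds the share of Foxh1 peaks with Tle ranged from 54.4% (50.1 to 58.6%) on scaffold 10 to 60.7% (58.7 to 62.6%) on scaffold 7. The share of Tle peaks with Foxh1 ranged from 38.6% (35.1 to 42.2%) on scaffold 10 to 47.4% (45.8 to 49.0%) on scaffold 3. On all shorter scaffolds together the Foxh1 share was 57.8% (55.1 to 60.4%), within the range of the long ones. The Tle share there was 30.7% (28.9 to 32.5%) of 2534 peaks, below every long scaffold. Of the Tle peaks without Foxh1, 526 lay on 370 scaffolds that held no Foxh1 peak at all.

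Where the peaks met, they were nearly concentric. The distance from the Foxh1 summit, the base of highest signal within a peak, to the middle of the Tle peak had a median of 44 bases, with quartiles of 20 and 87 bases, over the 16856 pairs. The summit was within 50 bases of the Tle middle in 55.0% of the pairs, within 100 bases in 79.3% and within 200 bases in 93.4%. It lay inside the Tle peak in 95.7% of the pairs, and in the central 20% of its length in 39.2%. It lay at the higher coordinate in 49.5% of the pairs and at the lower coordinate in 49.8%. Coordinates do not follow the direction of genes or motifs, so this even split cannot tell if a side relative to those was preferred. The summit was more than 200 bases away in the remaining pairs, up to 1329 bases.

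**Figure D1:**
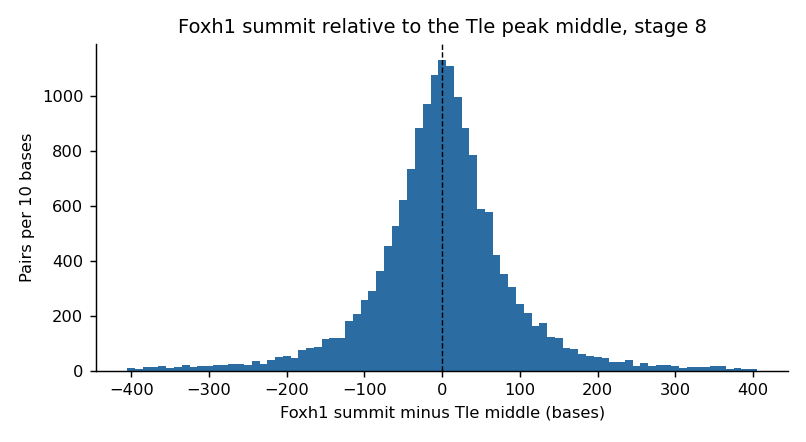
Number of pairs (vertical axis, per 10 bases) by the position of the stage 8 Foxh1 summit relative to the middle of its Tle peak (horizontal axis, bases). The distribution is centred on 0, with a median absolute distance of 44 bases, and 276 pairs (1.64%) beyond the ends of the axis are not drawn.

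The Tle list gives no summit, so this distance sets a summit against a middle. The Foxh1 summit was itself a median of 21 bases from the middle of its own peak. By the same measure the stage 8 Foxh1 summit was a median of 21 bases from the middle of an overlapping stage 9 Foxh1 peak (17736 pairs) and 50 bases from that of an overlapping Foxa peak (5776 pairs). The median for Tle thus lay between that for the same factor 1 stage later and that for another factor, and nearer to the second. With the middle of the Foxh1 peak in place of the summit the median for Tle was 36 bases.

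In bases, the offset changed little with the strength of Foxh1 and more with the width of the Tle peak. From the lowest to the highest of 4 classes by Foxh1 fold enrichment, the authors' ratio of signal over local background, the median distance was 46.5, 45, 43 and 41 bases. From the narrowest to the widest of 4 classes by Tle width it was 34, 29, 44 and 103 bases. The widest class held Tle peaks from 459 to 2997 bases, whose middle is only a coarse centre. As a percentage of the Tle width, the medians of these width classes were 16.1, 10.2, 11.4 and 17.4%. In the classes by Foxh1 fold, from lowest to highest, this percentage fell, with medians of 15.6, 14.6, 13.1 and 10.9%. The median Tle width was 292 bases in the lowest fold class and 388 bases in the highest. A small group of 251 Tle peaks spanned more than 1 Foxh1 peak. They had a median width of 846 bases, and the outermost Foxh1 summits within a group lay a median of 483 bases apart.

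Stronger Foxh1 peaks carried Tle more often. Folds were divided into 10 classes of about equal size, read against the 58.3% of the whole list. In the highest class, with folds from 28.9 to 53.6, 89.7% (88.5 to 90.8%) had a Tle peak, and in the second lowest, with folds from 11.8 to 13.0, 40.9% (39.1 to 42.7%). The relation was not monotonic at its lower end, since the lowest class, with folds from 3.88 to 11.8, had 46.5% (44.7 to 48.4%). The peaks of that class were wider than those of the next, with medians of 276 and 255.5 bases. Of the 287 Foxh1 peaks in the highest 1% by fold, 277 had Tle, which is 96.5% (93.7 to 98.1%).

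The width of the Foxh1 peak separated peaks with and without Tle further than the fold did. From the narrowest to the widest of 10 classes by width the share with Tle went from 21.2% (19.8 to 22.8%), 603 of 2841 peaks, to 2719 of 2862 peaks, an interval of 94.1 to 95.7%. A wide peak has more bases on which an overlap can fall. The same classes were therefore also read by a rule without the Foxh1 edges, a summit within 100 bases of a Tle middle. By that rule the share was 16.1% in the narrowest class, 68.6% in the eighth class (389 to 453 bases) and 55.2% in the widest. The rise over the narrower classes was thus present under both rules, and the rule by centres fell again in the widest class. Over the pairs, Foxh1 and Tle widths were correlated at 0.50. In the widest of 4 classes by Tle width the median distance was 103 bases. A limit of 100 bases leaves out many such pairs, so the fall does not show that Tle was rarer there.

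Width and fold were then crossed in 4 classes each. Among the Foxh1 peaks of lowest fold, the share with Tle was 19.6% (18.2 to 21.1%) in the narrowest class and 79.9% (77.3 to 82.2%) in the widest. Among the narrowest peaks it was 19.6% at the lowest fold and 43.9% (38.7 to 49.3%) at the highest. In the class that was both widest and highest, 95.7% (94.9 to 96.3%) of 3232 peaks had Tle. Both measures therefore went with the presence of Tle when the other was held within a class, and by overlap the step across widths was the larger. By centres within 100 bases, the share at the lowest fold was 16.2% in the narrowest class, 53.6% in the third and 53.4% in the widest. Among the narrowest peaks it was 34.1% at the highest fold. The step across widths at the lowest fold was thus smaller by that rule and ended at the third class. The limit of 100 bases bears on the widest class here too.

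**Figure D2:**
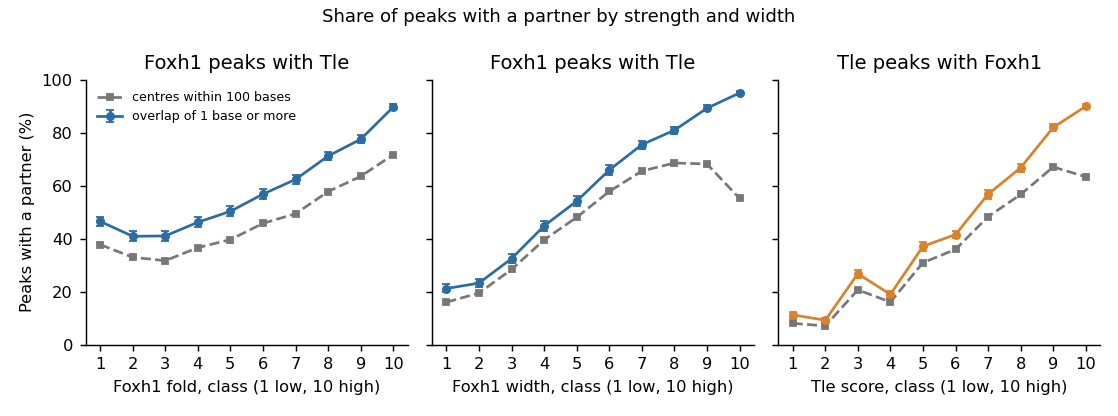
Share of stage 8 peaks with a partner (vertical axis, percent) over 10 classes, for Foxh1 peaks by fold enrichment (left) and by width (middle) and for Tle peaks by score (right). The Foxh1 classes are of about equal size, and the Tle classes hold from 2848 to 5342 peaks because of tied scores. Solid lines show an overlap of 1 base or more with 95% Wilson intervals and dashed lines centres within 100 bases; by overlap the share reaches 89.7% in the highest class by fold and 90.0% in the highest by Tle score.

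From the Tle side the gradient across the score was steeper than that across the Foxh1 fold, each over the classes of its own list. The single value per Tle peak is the authors' deposited score, which ran from 3.01 to 605.8. No Foxh1 peak, with or without Tle, had a deposited −log10 p below 32.0, so weaker Foxh1 peaks are absent from that list. The scale of the Tle score is not known, so the lower limits of the lists cannot be compared. Their effect on the gradients was not tested. Of the Tle peaks with the highest scores, in a class from 27.8 upwards, 90.0% (89.0 to 90.9%) had Foxh1, against 43.8% of all Tle peaks. In the lowest class, with scores up to 4.34, 11.3% (10.2 to 12.5%) had Foxh1. Higher scores go with wider Tle peaks. By centres within 100 bases the share was 8.11% in the lowest class, 67.1% in the ninth and 63.4% in the highest. The score takes few distinct values at its lower end: 5342 peaks, 14.1% of the list, share the value 4.35, and 9.27% (8.52 to 10.1%) of them had Foxh1. At the very top the share did not rise further, with 336 of the 380 Tle peaks in the highest 1%, or 88.4% (84.8 to 91.3%).

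Paired peaks were wider than unpaired ones in both lists. The median width of Foxh1 peaks was 372 bases with Tle (quartiles 291 and 494) and 248 bases without (214 and 298). The median width of Tle peaks was 329 bases with Foxh1 (245 and 451) and 214 bases without (190 and 292). No Tle peak was narrower than 190 bases, and 39.9% of the unpaired Tle peaks had exactly this width, against 9.31% of the paired ones. The difference in Tle width of 115 bases was 69 bases in the upper 50% of each list.

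For Tle, the width difference was small once the score was held within a class. In the highest of the 10 score classes paired and unpaired Tle peaks had medians of 514 and 503.5 bases, and in the eighth class 319 and 326 bases. In the 2 lowest classes both medians stood at the minimum of 190 bases. For Foxh1 the difference was still there within classes of fold, with 465 against 305 bases in the highest class and 335 against 241 in the lowest. Over the pairs, score and width of Tle were correlated at 0.73, and fold and width of Foxh1 at 0.32. A class by score thus holds width more closely than a class by fold does. The factors are therefore not compared by these values. Within pairs, the Foxh1 peak was the wider one in 66.2%. The Tle peak lay wholly inside the Foxh1 peak in 40.3% of the pairs, and the Foxh1 peak inside the Tle peak in 14.6%.

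**Figure D3:**
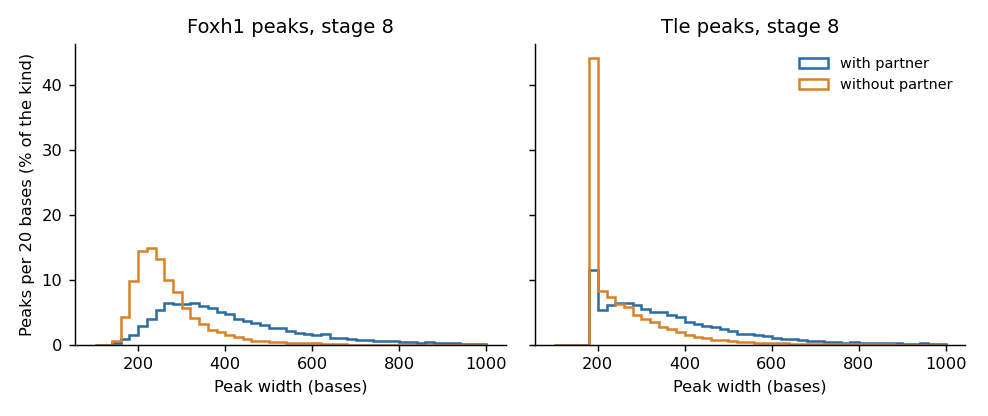
Width of stage 8 Foxh1 peaks (left) and Tle peaks (right) with and without a partner in the other list (horizontal axis, bases; vertical axis, percent of the peaks of that kind per 20 bases). Peaks with a partner are shifted to larger widths in both lists, and Tle peaks pile up at the minimum of 190 bases; 225 Foxh1 and 310 Tle peaks wider than 1000 bases are not drawn.

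Over the pairs, Foxh1 fold and Tle score rose together only loosely. The Spearman rank correlation was 0.35 over 16856 pairs, given as a description, since neighbouring pairs are not independent and both values also go with peak width. The median Tle score was 9.68 in the lowest of 10 classes by Foxh1 fold, 8.93 in the next and 29.0 in the highest. The quartiles were 6.71 and 15.7 in the lowest class and 15.7 and 56.5 in the highest, so the middle 50% of both classes met only at their edges. On the 10 longest scaffolds taken singly the correlation ranged from 0.33 to 0.38.

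The relation depended on the width of the Foxh1 peak. In 4 classes by Foxh1 width the correlation was 0.10 in the narrowest (137 to 291 bases), 0.20, 0.31 and 0.42 in the widest (499 to 2058 bases). Among narrow Foxh1 peaks the fold thus said little about the Tle score. With the deposited −log10 p of the Foxh1 peak in place of the fold the correlation was 0.43. The widths of the paired peaks were correlated at 0.50.

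The overlap of the highest peaks of both lists was partial. Ranked among the pairs alone, 1682 were in the highest 10% by Foxh1 fold. Of these, 532 (31.6%, 29.5 to 33.9%) were also in the highest 10% by Tle score, and 308 (18.3%, 16.5 to 20.2%) were in the lower 50%. The pairs of the highest 1% of Tle peaks had Foxh1 folds from 5.19 to 49.9, with a median of 27.1, where the median of all Foxh1 peaks was 16.6. Of these 378 pairs, 44.7% (39.8 to 49.7%) held a Foxh1 peak from the highest 10% of its list. From the other side, 187 of the 281 pairs of the highest 1% of Foxh1 peaks, or 66.5% (60.8 to 71.8%), held a Tle peak from the highest 10% of its list. Over all paired peaks, 2567 of 16676 Foxh1 peaks and 3412 of 16594 Tle peaks were in the highest 10% of their list. The 44.7 and 66.5% are therefore read against unlike starting shares and do not compare the sides directly. Strong Tle thus mostly came with Foxh1, at folds that spanned most of the range of the list.

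**Figure D4:**
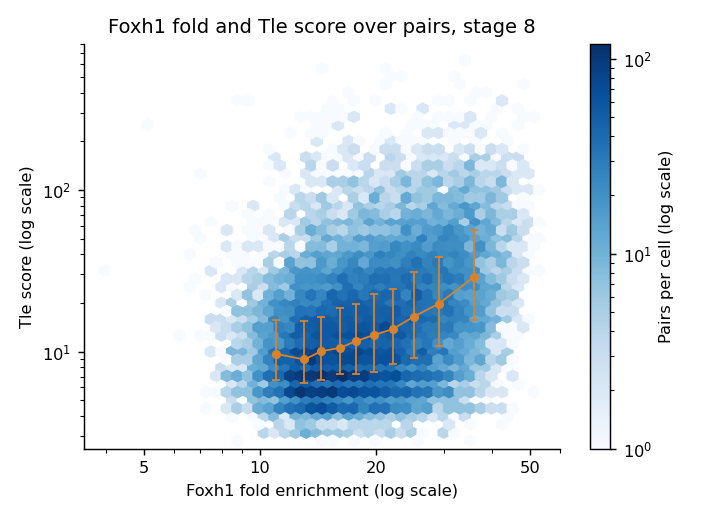
Foxh1 fold enrichment (horizontal axis, log scale) and Tle score (vertical axis, log scale) of the 16856 pairs, with darker cells holding more pairs. Orange points are the median Tle score in 10 classes by Foxh1 fold with bars from the lower to the upper quartile; the medians go from 9.68 in the lowest class to 29.0 in the highest.

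The single loci named here were chosen by rank, and their coordinates, counted from 1, are those of the deposited lists, whose genome build was not found in the labels or headers, so no gene was assigned to a peak. The Foxh1 peak of highest fold, 53.6, was that of scaffold 2, bases 106251251 to 106251675. Its Tle peak had a score of 106 and rank 411 in the Tle list, with the summit 35 bases from the Tle middle. This Tle peak also overlapped stage 9 Foxh1 and no peak of the other lists. A fold of 52.3 was reached at scaffold 7 (1854579 to 1855041) and at scaffold 4 (3595770 to 3596164). Their Tle peaks had scores of 50.3, at rank 1531, and 65.9, at distances of 101 and 34 bases. The fourth, at scaffold 10 (15499189 to 15499627), had a fold of 51.7 and the lowest Tle score of these 5, 31.4, at rank 3134. The fifth, at scaffold 9 (96786271 to 96786600), had a fold of 51.4 and a Tle score of 47.0 at rank 1724, with the centres 7 bases apart. All 5 Tle peaks were thus in the highest 10% of the Tle list by score. Each also overlapped stage 9 Foxh1, and those of scaffolds 7, 4 and 10 also overlapped Foxa and gastrula Foxh1. That of scaffold 7 overlapped Smad2/3 as well. Of all paired Tle peaks, 65.0% overlapped stage 9 Foxh1, 23.3% Foxa, 4.13% gastrula Foxh1 and 1.05% Smad2/3.

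In the pairs of highest Tle score the Foxh1 folds spanned a wide range and the centres lay further apart. The Tle peak at scaffold 6 (133029295 to 133030011) had a score of 605.8, the highest of the list, and a Foxh1 fold of 21.2 at rank 8035 of 28611. The Tle peak at scaffold 1 (69463383 to 69464426) scored 602.8, with a Foxh1 fold of 34.0. The third, at scaffold 7 (98696036 to 98697321), scored 548.1 over a Foxh1 peak of fold 14.2 at rank 19487, and this Tle peak overlapped none of the later lists. The Tle peak of a second place on scaffold 6 (45883749 to 45884487) scored 526.3, with a Foxh1 fold of 22.1. That of scaffold 2 (126315130 to 126315826) scored 484.9, with a fold of 32.3. These 5 Tle peaks were 697 to 1286 bases wide, and the Foxh1 summit lay 107 to 391 bases from their middle. None of them overlapped a Foxa or a Smad2/3 peak, where 14.5 and 0.517% of all Tle peaks did. All but that of scaffold 7 overlapped stage 9 Foxh1, as did 65.0% of all paired Tle peaks. Both of scaffold 6 and that of scaffold 1 overlapped gastrula Foxh1, as did 4.13% of all paired Tle peaks.

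Windows of 100 kb were started at each paired Tle peak, so each held at least 1 pair, and their median was 2 pairs. The 2 with the most pairs that do not overlap each other are given as examples. The window of scaffold 6 (103431018 to 103531017) held 35 pairs, the most of any. Of the 52 Tle peaks in it 19 had no Foxh1, and of the 35 Foxh1 peaks 1 had no Tle. Tle scores of its pairs ran from 3.59 to 158.7 with a median of 26.1, and Foxh1 folds from 10.3 to 35.1. Of its Tle peaks, 23 overlapped stage 9 Foxh1, 3 Foxa and none gastrula Foxh1 or Smad2/3. Of all Tle peaks, 33.4, 14.5, 1.91 and 0.517% overlapped these lists, in that order. The next window, of scaffold 9 (20799529 to 20899528), held 23 pairs among 33 Tle and 27 Foxh1 peaks, with a median Tle score of 54.8.

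The 21325 Tle peaks without stage 8 Foxh1 were weaker than the paired ones, with a median score of 5.78 (quartiles 4.35 and 7.80) against 12.7 (7.50 and 23.6). They were chosen for not overlapping Foxh1, which bars most positions close to a summit, and the lowest distance was 200 bases. The distance from the Tle middle to the nearest Foxh1 summit on the same scaffold had a median of 12890 bases, with quartiles of 3418.5 and 34905 bases, over 20799 peaks. Within 500 bases lay 358 (1.68%, 1.51 to 1.86%), within 1 kb 1820 (8.53%, 8.17 to 8.92%) and within 10 kb 9213 (43.2%, 42.5 to 43.9%). Of the scaffold extent, 2.04% lay within 500 bases and 3.89% within 1 kb of a Foxh1 summit. The count within 500 bases is thus held down by the way these peaks were chosen. Of all Tle peaks, paired ones included, 68.1% lay within 10 kb.

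From 1 kb on, more of these Tle peaks than of the bases of the scaffolds lay within a given distance of Foxh1. Within 2 kb of a Foxh1 summit lay 16.9% (16.4 to 17.4%) of them and 7.25% of the scaffold extent, and within 10 kb 43.2% and 28.0%. Within 50 kb the shares were 81.2% (80.6 to 81.7%) and 73.8%. These shares are cumulative, so each longer distance also counts the nearer peaks, and both must meet at long range. Within 20 kb they were 59.1% and 45.8%, a narrower gap than at 10 kb. The excess over the extent thus built up within 10 kb. Beyond 10 kb the share of Tle peaks that was added lay below that of the extent. The extent includes bases to which reads cannot be mapped and stops at the furthest peak, so it is a rough reference. Stage 9 Foxh1 peaks and Foxa peaks without stage 8 Foxh1 gave 43.9% (43.1 to 44.8%) and 40.2% (39.7 to 40.7%) within 10 kb, close to the 43.2% of Tle, so this nearness was seen for the other 2 long lists as well.

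**Figure D5:**
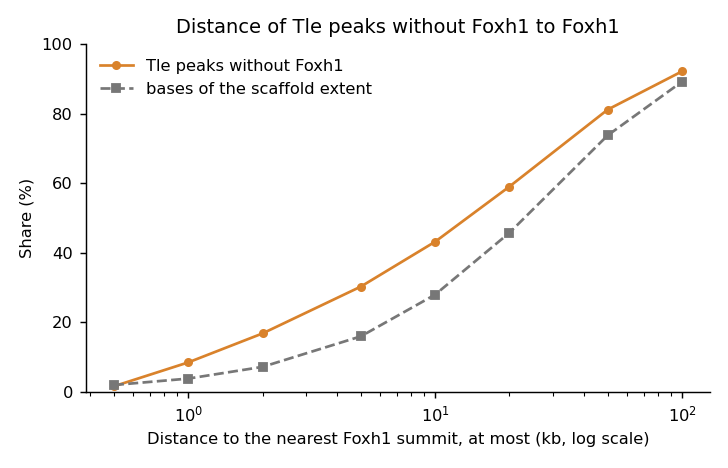
Cumulative share (vertical axis, percent) of the 21325 Tle peaks without stage 8 Foxh1 whose middle lies within a given distance of a Foxh1 summit (horizontal axis, kb, log scale), beside the share of the scaffold extent within that distance. Unpaired peaks have no Foxh1 summit close by through the way they were chosen; from 1 kb on the Tle curve lies above that of the extent, with 43.2 against 28.0% at 10 kb.

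With growing distance from Foxh1 the scores of unpaired Tle peaks went down slightly. Their median was 6.66 up to 1 kb, 5.78 from 5 to 10 kb and 4.82 beyond 100 kb. The share at the minimum width went from 31.7% to 39.6% and 47.0% in the same bins. Stage 9 Foxh1 was found at 11.9, 9.20 and 7.13% of them.

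The unpaired Tle peaks were not all weak. The highest, at scaffold 3 (52478791 to 52479457), had a score of 311.8 and rank 24 in the list, lay 30.7 kb from the nearest stage 8 Foxh1 summit and overlapped a stage 9 Foxh1 peak. The next 4 scored from 297.3 down to 252.7 and overlapped no peak of any other list, which held for 88.0% of all unpaired Tle peaks. The first of them, at scaffold 7 (80392741 to 80393659), was 34.3 kb from Foxh1. Both others on scaffold 3 (67363273 to 67363796, and 66522161 to 66522616) were 24.6 and 10.2 kb from it, and the last, at scaffold 8 (15636429 to 15637249), was 187.4 kb away. The 3 unpaired Tle peaks farthest from Foxh1, at 653.5, 632.7 and 615.3 kb on scaffolds 8 and 9, were all of the minimum width and had scores of 4.35, 3.02 and 5.78.

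The 11935 Foxh1 peaks without Tle were spaced in much the same way. Their summits lay a median of 11019.5 bases from the nearest Tle middle, and 47.2% (46.3 to 48.1%) lay within 10 kb, where 34.3% of the extent did. Their median fold was 14.7 (quartiles 12.9 and 18.1), against 18.7 (14.4 and 25.0) with Tle. The highest, at scaffold 5 (89943491 to 89943807), had a fold of 49.2 at rank 15 and had stage 9 Foxh1, Foxa and gastrula Foxh1. The second, at scaffold 7 (94613729 to 94614069), had a fold of 45.6, with stage 9 and gastrula Foxh1. The nearest Tle middle was 917 bases away. The third, at scaffold 2 (85785988 to 85786250), had a fold of 45.4 and Tle 19.0 kb away. At scaffold 4 (102472241 to 102472675) the fold was 44.9 and the distance 80.0 kb, and at scaffold 1 (120889498 to 120889962) they were 44.3 and 41.2 kb. All 5 had stage 9 Foxh1, which was present at 57.1% of all Foxh1 peaks without Tle. In the highest of 3 classes by fold it was present at 81.6% of those without Tle.

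The later lists were then read at Tle peaks with and without stage 8 Foxh1. Stage 9 Foxh1, at 33.4% of all Tle peaks, was present at 65.0% (64.3 to 65.8%) of the paired and 8.72% (8.35 to 9.11%) of the unpaired ones. Foxa, at 14.5% of all, was present at 23.3% (22.6 to 23.9%) and 7.71% (7.36 to 8.08%). Gastrula Foxh1, at 1.91% of all, was present at 686 paired and 38 unpaired Tle peaks, and Smad2/3, at 0.517% of all, at 174 and 22. Paired means here that stage 8 Foxh1 is present, and 61.7% of all stage 8 Foxh1 peaks had stage 9 Foxh1. A wide gap for stage 9 Foxh1 was thus largely set by how the groups were formed. Paired Tle peaks also have higher scores. The gap for stage 9 Foxh1 and for Foxa was found in each of 3 classes by Tle score. For Foxa it was 18.3 against 5.51%, 20.7 against 9.80% and 25.4 against 9.19% from the lowest to the highest class. Of the unpaired Tle peaks, 18758 (88.0%, 87.5 to 88.4%) overlapped none of the other 4 lists. No such share over all Tle peaks is given here, so the value is not read as a trait of the unpaired ones.

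From the Foxh1 side the later lists differed less between peaks with and without Tle. Foxa, at 19.8% of all stage 8 Foxh1 peaks, was present at 23.3% (22.7 to 24.0%) with Tle and 14.8% (14.2 to 15.4%) without. In 3 classes by Foxh1 fold the Foxa shares with and without Tle were 19.2 and 13.1%, 20.7 and 14.9%, and 27.4 and 19.0%, so the gap was there at each strength. It was 8.56 percentage points over all peaks and 4.72 points when each peak had to cover 50% of the other. The later lists of small size gave few overlaps. Gastrula Foxh1, at 3.33% of all, was present at 4.15% (3.86 to 4.46%) of the peaks with Tle and 2.20% (1.95 to 2.47%) of those without. In the lowest and middle class by fold these shares were 1.15 and 1.37%, and 2.16 and 2.12%, and in the highest 7.17% (6.61 to 7.78%) and 4.49% (3.68 to 5.46%). The gap in gastrula Foxh1 was thus seen in the highest class alone. Smad2/3, at 0.783% of all, was present at 1.04 and 0.419%, or 174 and 50 peaks. In the lowest and middle class by fold its shares with and without Tle were 0.416 and 0.278%, and 0.506 and 0.338%, with overlapping intervals. In the highest class they were 1.76% (1.48 to 2.08%) and 0.956% (0.619 to 1.47%). When each peak had to cover 50% of the other, the gap was 0.829 in place of 1.95 points for gastrula Foxh1 and 0.399 in place of 0.624 points for Smad2/3.

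Stage 9 Foxh1 was present at 61.7% of all stage 8 Foxh1 peaks, at 65.0% (64.3 to 65.7%) of those with Tle and at 57.1% (56.2 to 58.0%) of those without. That gap of 7.91 points was 4.32 points in the upper 50% of both lists, and within the 3 classes by fold it was not seen. The shares with and without Tle were 43.4 (41.9 to 45.0%) and 46.3% (45.0 to 47.6%) in the lowest class, 57.0 (55.7 to 58.4%) and 58.7% (57.3 to 60.2%) in the middle class. They were 82.4 (81.5 to 83.2%) and 81.6% (79.9 to 83.2%) in the highest. At like fold, the shares of stage 8 Foxh1 peaks found again at stage 9 were thus close with and without Tle, and in the lowest class slightly lower with it. Peak width was not held in this comparison.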

How the data were processed

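The submitters' processing notes name Bowtie 1.0.0, MACS2 2.0.10, HOMER 4.7 and SAMtools without saying which step each did. Neither the genome build nor the thresholds and controls of peak calling were found in the labels or headers (not given in the sources used here). The deposited Foxh1 list has 10 columns in the MACS2 layout, with the fold (a ratio over local background) and the −log10 p of each peak as the authors' values. The deposited Tle list has 5 columns with 1 score, and no source used here tells if the authors derived this score from p or from q values. Both kinds of value served to rank and group peaks within their own list. Each share is a count of peaks with its Wilson interval, and with 1 list per factor no test was run. Alternatives were a stricter overlap, a rule by centres, the upper part of both lists, the longest scaffolds, single-partner pairs and other choices of the compared columns or distances. The 7 samples of RNA polymerase II and input were not analysed here.

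Coordinates are those of the lists, counted from 1. Ties stayed within 1 class. The named regions are the 5 pairs of highest Foxh1 fold and of highest Tle score, and the 5 unpaired peaks of highest value of each list. Added to these are the 3 unpaired Tle peaks farthest from Foxh1 and the 2 windows with the most pairs that do not overlap each other. The comparison and these rules were chosen with earlier results of these data known, and the classes and the comparison with the scaffold extent with these values in view. Overlaps and distances were checked on intervals placed at known positions. Calculations used Python 3.11.15 with pandas 2.3.3, numpy 2.4.6 and scipy 1.17.1, and plots matplotlib 3.10.9.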

Additional observations from a re-analysis of the deposited data

How the results depend on the processing

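A reversal of direction was possible only for the correlation and the differences, and none of these reversed under the alternatives tried. The shares and the median distance cannot change sign, so only their shifts are read. Of the main results, 28 values moved beyond the 95% interval of the reported one. When each peak had to cover 50% of the other, 51.1% of Foxh1 peaks had Tle and 38.6% of Tle peaks had Foxh1. The median distance was 39 bases, the rank correlation 0.37, the difference in Foxh1 width 114 bases, and 48.0% of the unpaired Tle peaks lay within 10 kb of Foxh1. Stage 9 Foxh1 differed by 51.5 percentage points between Tle peaks with and without Foxh1. With the Foxh1 summit within 100 bases of the Tle middle, the same shares were 46.7 and 35.3%, the differences in width 80 bases for Tle and 94 bases for Foxh1, and the share within 10 kb 50.7%. Stage 9 Foxh1 then differed by 6.29 points between Foxh1 peaks with and without Tle and by 54.9 points between Tle peaks with and without Foxh1. In the upper 50% of each of the 2 lists the shares were 59.8 and 44.9%, the median distance 42 bases, the correlation 0.30, the width differences 69 bases for Tle and 140 bases for Foxh1, and the share within 10 kb 37.1%. The stage 9 differences were 4.32 points at Foxh1 peaks, against 7.91 over all peaks, and 50.3 points at Tle peaks. On the 10 longest scaffolds 44.7% of Tle peaks had Foxh1, and 45.0% of the unpaired ones lay within 10 kb. With single-partner pairs alone the median distance was 42 bases, with the Foxh1 middle 36 bases, and with the −log10 p the correlation was 0.43. Under the 50% rule and the rule by centres, overlapping peaks that failed the rule were counted as unpaired. The 48.0 and 50.7% within 10 kb therefore include Tle peaks that overlap Foxh1. In the upper 50%, distances were taken to the retained Foxh1 peaks alone. Beyond these rules of counting, the causes of the shifts were not tested. Another 11 values of these results stayed within the 95% interval of the reported one. For Foxa, gastrula Foxh1 and Smad2/3, 16 of 18 differences moved beyond it, some to smaller and some to larger values, and all kept their sign. No library could be left out, since each list is 1 value per peak, and no paired analysis was possible because each factor and stage has a single list. The unknown depth limits all statements on peaks without a partner: a missing peak is not shown to be an unbound site. The Foxh1 list held no peak with a −log10 p below 32.0, and weaker Foxh1 signal at unpaired Tle peaks was not tested.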
